A study of Mus musculus with 10 samples.

Results

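The genes described here code for cues that guide growing axons and sort cells, and their receptors: 22 Eph receptor and ephrin genes, and 14 Slit, Robo, netrin, Dcc and Unc5 genes. Peaks of accessible chromatin from whole mouse cochleae were merged across ages where they overlapped by at least 1 bp, each merged region went by its middle to the closest protein-coding gene no more than 100 kb away, and the regions of these 36 genes were kept. This gave 270 regions out of 64911 in the whole series, of which 59245 had a protein-coding gene within 100 kb. All 36 genes had at least 1 region: the Eph and ephrin genes held 137 regions and the Slit, Robo and netrin genes held 133.

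The samples were cochleae of CD1 mice, an outbred strain, at postnatal days 2 (P2, 3 animals), 5 (P5, 3 animals) and 8 (P8, 4 animals), with no transgene, treatment or sorting given in the labels. Both cochleae of an animal were combined, nuclei were purified, and accessible DNA was tagged by a transposase (ATAC-seq). The submitters provided 1 peak list per age, so animals within an age could not be compared and no difference between ages has a replicate check. Because the tissue was whole cochlea, fewer cells of a type and less accessible DNA per cell cannot be told apart in any result below.

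Eph receptors are receptor tyrosine kinases that bind ephrins on neighbouring cells: ephrin-A ligands are held by a lipid anchor and ephrin-B ligands span the membrane, and signals pass into both cells. Slits are secreted proteins that repel axons through Robo receptors, and netrins are secreted proteins that attract through Dcc or repel through Unc5 receptors. In the mouse inner ear, Epha4 in mesenchyme and ephrin-B2 on spiral ganglion axons take part in bundling of those axons, Slit and Robo signalling holds spiral ganglion neurons in place, and netrin-1 is needed for formation of the semicircular canals.

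The promoters that bear on the results were those where the peak call depended on age and those with the most strongly ranked peaks. RefSeq promoter windows (build GRCm38.p6, the assembly that mm10 names) were matched by symbol for 31 of the 36 genes, in 36 windows; Efnb3, Slit1, Ntn1, Dcc and Unc5d had none in the table. The 250 bases before the start are shown 5′ to 3′ on the gene's strand for 10 windows. Capitals mark matches on either strand to any of 9 short motifs searched: GGGCGG for the GC box, CCAAT for the CCAAT box, TATAAA for the TATA box, TGANTCA for AP-1, TGGGAA for RBPJ, CACGTG for one E-box, CAGCTG for another E-box, TTTGAT for TCF/LEF and TTGTTC for SOX factors. Matches of different motifs may overlap. Efna1, Efna2, Efna3, Epha10 and Robo2 each have a window whose region was not called at P8. Efna1 and Robo2 are shown at another start too, which was called at all 3 ages, and Epha7, Ephb1 and Ephb3 had the highest mean percentiles at their windows. A percentile here is the rank of a peak by −log10 p-value, the authors' own peak score, in percent of the length of that age's list. Tied peaks take their mean rank, a region takes its highest peak, and 100 is the top of the list. Since the lists differ in length, percentiles give a place within a list, and a difference between ages is not read as a change.
Efna1, called at all ages, chr3:89279646-89279895, minus strand: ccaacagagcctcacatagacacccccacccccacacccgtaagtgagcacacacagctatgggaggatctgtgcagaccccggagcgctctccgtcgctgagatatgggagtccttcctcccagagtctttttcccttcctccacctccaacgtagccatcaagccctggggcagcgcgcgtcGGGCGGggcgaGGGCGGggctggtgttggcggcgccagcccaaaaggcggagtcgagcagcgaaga
Efna1, called at P2 only, chr3:89280952-89281201, minus strand: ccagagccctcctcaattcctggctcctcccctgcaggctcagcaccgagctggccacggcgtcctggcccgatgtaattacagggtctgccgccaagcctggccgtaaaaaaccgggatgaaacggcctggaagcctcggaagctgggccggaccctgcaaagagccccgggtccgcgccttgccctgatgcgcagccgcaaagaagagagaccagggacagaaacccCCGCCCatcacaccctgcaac
Efna2, called at P2 and P5, chr10:80179232-80179481, plus strand: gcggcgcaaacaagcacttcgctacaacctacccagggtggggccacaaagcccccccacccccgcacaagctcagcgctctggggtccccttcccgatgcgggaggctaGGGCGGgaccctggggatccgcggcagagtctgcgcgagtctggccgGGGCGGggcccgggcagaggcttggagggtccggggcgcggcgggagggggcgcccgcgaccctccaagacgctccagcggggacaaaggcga
Efna3, called at P2 and P5, chr3:89322940-89323189, minus strand: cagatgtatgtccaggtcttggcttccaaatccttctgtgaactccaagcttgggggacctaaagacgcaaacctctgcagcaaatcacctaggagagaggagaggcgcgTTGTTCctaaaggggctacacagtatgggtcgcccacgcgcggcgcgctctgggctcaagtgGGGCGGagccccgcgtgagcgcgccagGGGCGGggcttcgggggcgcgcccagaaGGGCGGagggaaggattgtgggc
Epha10, called at P2 only, chr4:124881535-124881784, plus strand: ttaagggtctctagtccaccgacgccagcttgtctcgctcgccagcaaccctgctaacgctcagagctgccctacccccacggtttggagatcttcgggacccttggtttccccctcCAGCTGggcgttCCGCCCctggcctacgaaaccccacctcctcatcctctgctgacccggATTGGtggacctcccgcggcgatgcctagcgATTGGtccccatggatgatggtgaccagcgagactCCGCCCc
Epha7, called at all ages, chr4:28812881-28813130, plus strand: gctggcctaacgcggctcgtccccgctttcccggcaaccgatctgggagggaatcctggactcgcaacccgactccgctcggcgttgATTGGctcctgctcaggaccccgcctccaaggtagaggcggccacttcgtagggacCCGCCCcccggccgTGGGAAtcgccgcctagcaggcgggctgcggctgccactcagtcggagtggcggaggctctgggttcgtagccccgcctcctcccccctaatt
Ephb1, called at all ages, chr9:102354694-102354943, minus strand: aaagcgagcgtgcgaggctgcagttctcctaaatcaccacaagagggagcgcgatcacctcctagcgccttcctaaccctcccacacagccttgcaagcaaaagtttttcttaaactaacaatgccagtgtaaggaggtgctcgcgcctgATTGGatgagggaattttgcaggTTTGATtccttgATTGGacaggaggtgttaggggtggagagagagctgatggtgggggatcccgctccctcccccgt
Ephb3, called at all ages, chr16:21204545-21204794, plus strand: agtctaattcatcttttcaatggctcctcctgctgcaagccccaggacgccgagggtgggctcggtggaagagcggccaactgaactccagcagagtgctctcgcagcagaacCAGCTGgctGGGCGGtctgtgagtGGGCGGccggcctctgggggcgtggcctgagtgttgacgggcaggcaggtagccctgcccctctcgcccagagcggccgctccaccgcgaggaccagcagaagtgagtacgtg
Robo2, called at all ages, chr16:74411826-74412075, minus strand: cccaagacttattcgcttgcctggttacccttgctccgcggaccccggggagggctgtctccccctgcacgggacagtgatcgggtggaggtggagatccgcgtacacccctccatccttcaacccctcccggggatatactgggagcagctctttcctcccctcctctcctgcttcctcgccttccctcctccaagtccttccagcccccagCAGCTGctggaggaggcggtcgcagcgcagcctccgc
Robo2, called at P2 only, chr16:75447294-75447543, minus strand: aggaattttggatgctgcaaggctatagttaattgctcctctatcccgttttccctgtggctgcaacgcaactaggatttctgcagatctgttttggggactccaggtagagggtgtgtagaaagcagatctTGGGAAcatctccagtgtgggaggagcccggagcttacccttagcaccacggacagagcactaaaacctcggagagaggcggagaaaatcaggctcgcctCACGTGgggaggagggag

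In these 250 bases, the GC box matched in 69.4% of the 36 windows of the members and in 42.6% of the 21263 windows of all genes in the table. The members' windows were also richer in G and C, with a median of 65.2% against 55.6% over all windows, and in CpG, with a median observed-to-expected ratio of 0.692 against 0.530, and the part of base composition in the GC box share was not tested. The other motifs were matched in members' windows at shares of 36.1% for the CCAAT box, 16.7% for RBPJ, 13.9% for the CAGCTG E-box, 8.33% for TCF/LEF and 5.56% each for the TATA box, the CACGTG E-box and SOX, and AP-1 matched in 0 of 36. Over all windows these shares were 35.4% for the CCAAT box, 20.9% for RBPJ, 12.1% for the CAGCTG E-box, 9.13% for TCF/LEF, 11.6% for the TATA box, 6.63% for the CACGTG E-box, 9.82% for SOX and 6.13% for AP-1. A match here is only a run of letters, and was not tested as a site.

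Most promoter windows of these genes lay in regions called at every age. Of the 36 windows, 23 (63.9%) overlapped a region called at all 3 ages, against 46.9% of all windows. A region called at 1 or 2 ages overlapped 5 (13.9%), against 5.92% of all windows. The other 8 windows (22.2%) overlapped no region, against 47.2% of all windows. Efna1, Efna3, Epha7 and Robo2 count with more than 1 window each, and those of Epha7 lie in the same region. The 5 were the upstream start of Efna1, Efna2, Efna3, Epha10 and the distal start of Robo2, and all lacked the call at P8. Efna2, a lipid-anchored ephrin, was called at its promoter at P2 at percentile 39.5 and at P5 at percentile 2.90. The promoter of Efna3, another ligand of this kind, was at percentile 77.5 at P2 and 42.8 at P5 and was not called at P8. The starts of Epha10 (percentile 15.4), of Efna1 (7.69) and of Robo2 (11.4) that were called at P2 alone lay in the lower part of the P2 list.

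Few Eph and ephrin regions in the P8 list were absent from the P2 list, while many of the Slit, Robo and netrin regions were. A region is called gained here if it was in the P8 list and not in the P2 list, and lost if it was in the P2 list and not in the P8 list. Among the 76 Eph and ephrin regions at P8, 5 were gained (6.58%, Wilson 95% interval 2.84 to 14.5%). Among the 67 Slit, Robo and netrin regions at P8, 23 were gained (34.3%, 24.1 to 46.3%). Over all assigned regions, 19.0% of P8 regions were gained. The Eph and ephrin share was thus below that of all regions and the Slit, Robo and netrin share above it. The Eph and ephrin share minus the Slit, Robo and netrin share was −27.7 percentage points (95% interval −40.3 to −14.8). Such intervals cover counting error alone, since regions of a gene share its locus and 1 list stands for each age. With lists limited to equal length, gained shares were 10.5% in Eph and ephrin genes, 37.3% in Slit, Robo and netrin genes and 23.6% in all regions. In the upper 50% of each list by p-value they were 16.2%, 39.1% and 15%, so the Eph and ephrin share was there slightly above that of all regions. With regions given to every member within 100 kb, the Eph and ephrin share was 11.3% and the Slit, Robo and netrin share 28.4%, a difference of −17.1 points, the smallest of the 15 alternative settings run. With regions given to the gene with the nearest end, these shares were 5.41% and 27.5%, against 18.3% of all regions. The Slit, Robo and netrin interval there, 16.1 to 42.8%, included the share of all regions.

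Losses were above the level of all regions in both families, though not beyond counting error under every setting. Of the 122 Eph and ephrin regions at P2, 51 were lost by P8 (41.8%, 33.4 to 50.7%). Of the 97 Slit, Robo and netrin regions, 53 were lost (54.6%, 44.7 to 64.2%), while 31.7% of all P2 regions were lost. The difference, −12.8 points, had an interval of −25.5 to 0.454, which includes 0. Without Ephb2 it was −14.6 points with an interval of −27.7 to −0.878, which excludes 0. With lists of equal length these shares were 32.0% (23.7 to 41.7%), 44.7% (34.1 to 55.9%) and 24.1%. The Eph and ephrin interval there included the share of all regions. The same held over 1 kb from gene ends (36.6 to 56.3%, against 38.6%) and in genes over 100 kb (37.1 to 61.4%, against 38.2%). It also held at an irreproducible discovery rate of at most 0.01 (29.7 to 48.7%, against 32.6%) and without Ephb2 (31.1 to 49.6%, against 31.7%). Inside genes and over 1 kb from gene ends it held as well (37.9 to 63.9%, against 38.9%). The Slit, Robo and netrin interval lay above the share of all regions in each of these settings. A gene end here and below is either end of any annotated gene, not only of the member. Among the upper 50% of each list, the difference in lost share had the opposite sign, 1.25 points. There the intervals of both families included the 28.4% of all regions. Over both families, 28 of 143 P8 regions were gained (19.6%), near the 19.0% of all regions, and 104 of 219 P2 regions were lost (47.5%).

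**Figure D1:**
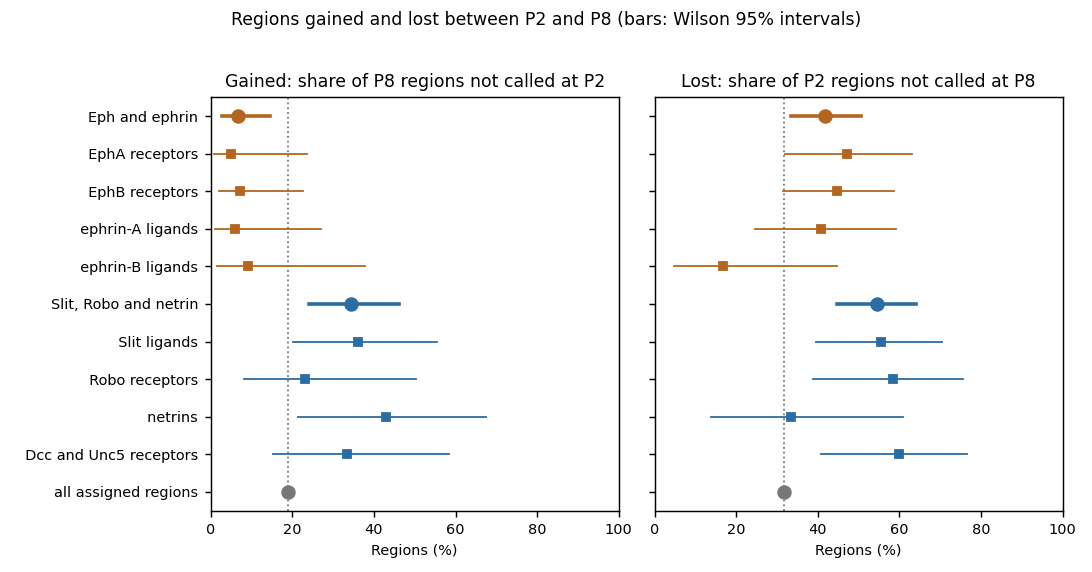
Percent of regions gained (P8 regions not called at P2) and lost (P2 regions not called at P8), on the horizontal axes, for the 2 families, their role groups and all assigned regions (dotted lines). Bars through the points are Wilson 95% intervals, and the Eph and ephrin gained share of 6.58% sits below the 34.3% of the Slit, Robo and netrin genes.

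Both families had fewer regions in each later list. Eph and ephrin genes had 122, 97 and 76 regions at P2, P5 and P8. Slit, Robo and netrin genes had 97, 80 and 67 at those ages. All assigned regions numbered 48101, 43556 and 40537, so the whole lists were shorter at later ages too. Calls at all 3 ages covered 67 of 137 Eph and ephrin regions (48.9%), 43 of 133 Slit, Robo and netrin regions (32.3%) and 51.9% of all regions. Calls shared by all ages were thus fewest in the Slit, Robo and netrin genes, and without Slit3, which had the most regions, the share was 34.0%.

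Between P2 and P5, 12 of 97 Eph and ephrin regions at P5 were gained (12.4%), against 25 of 80 Slit, Robo and netrin regions (31.3%) and 15.8% of all regions, a difference of −18.9 points (−30.9 to −6.75). Between P5 and P8, 7 of 76 (9.21%) were gained in the Eph and ephrin genes, 12 of 67 (17.9%) in the Slit, Robo and netrin genes and 15.7% of all regions, a difference of −8.70 points (−20.5 to 2.62). Losses between P2 and P5 were 37 of 122 (30.3%) for Eph and ephrin genes, 42 of 97 (43.3%) for Slit, Robo and netrin genes and 23.8% of all regions. The difference in that loss was −13.0 points (−25.4 to −0.180). Losses between P5 and P8 were 28 of 97 (28.9%), 25 of 80 (31.3%) and 21.5%. The 2 steps share the P5 list, so they are not independent. The interval of the difference in gains excluded 0 in the earlier step and included it in the later one, and whether the steps differ was not tested.

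**Figure D2:**
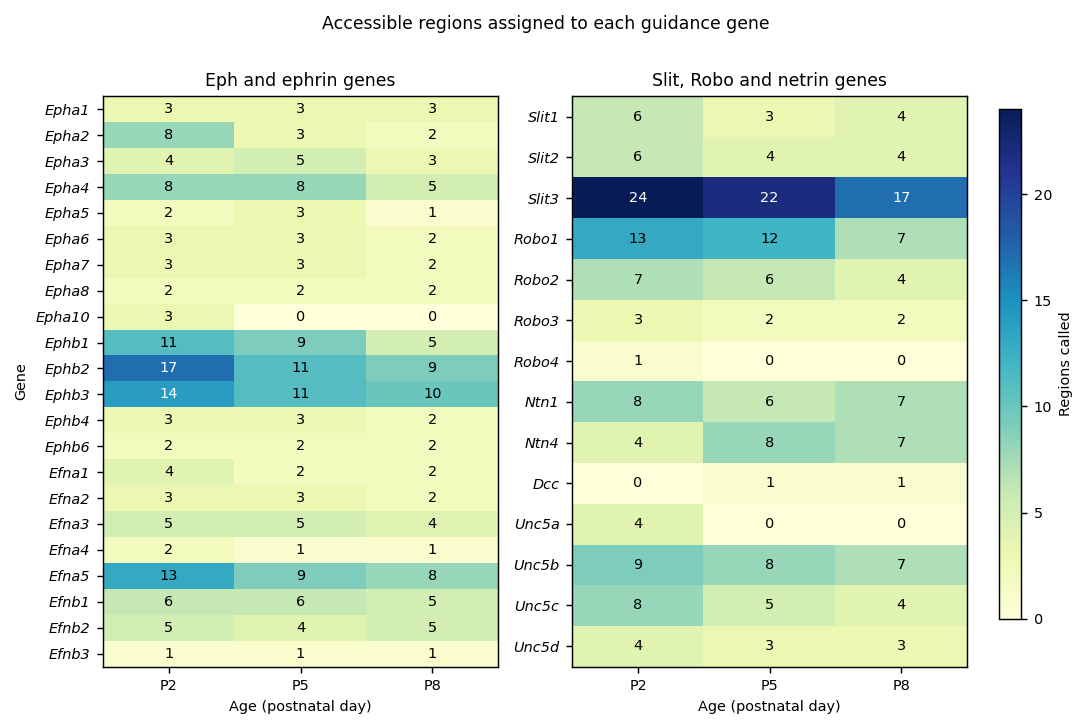
Number of called regions of each of the 36 genes (rows) at P2, P5 and P8 (columns), shown by the shade and the figure in each cell. Most genes, such as Ephb2 with 17, 11 and 9 regions, had fewer at P8 than at P2, while Ntn4 had 4, 8 and 7.

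Per gene, 17 of 22 Eph and ephrin genes had more lost than gained regions between P2 and P8, 0 had more gained and 5 were balanced. Of the 14 Slit, Robo and netrin genes, 12 had more lost and 2 had more gained, Ntn4 and Dcc. Among the 15799 genes with regions, 38.2% had more lost and 13.9% had more gained. At least 1 gained region was found in 5 of the 22 Eph and ephrin genes and in 10 of the 14 Slit, Robo and netrin genes, against 29.7% of all genes with regions. A gene with more regions has more that can be gained or lost. The families held 137 regions in 22 genes and 133 in 14, against 59245 in 15799 genes. The part of region number in these counts of genes was not tested. Without Ephb2 the gained share of the Eph and ephrin genes was 5.97%, and without Slit3 that of the Slit, Robo and netrin genes was 32.0%.

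Over all assigned regions, 19.0% of P8 regions were gained and 31.7% of P2 regions lost, the background for each role group below. The Wilson interval of the gained share included 19.0% in every role group except Slit genes (20.2 to 55.5%) and netrins (21.4 to 67.4%). The interval of the lost share included 31.7% in EphB, ephrin-A, ephrin-B and netrin genes. It lay above 31.7% in EphA, Slit and Robo genes and in the netrin receptors. The receptors for ephrin-A ligands, the EphA genes, had 1 gained of 20 P8 regions and 17 lost of 36 P2 regions. Epha2, an epithelial receptor, stood apart with 8, 3 and 2 regions at P2, P5 and P8. Its promoter was called at all 3 ages, but at percentiles 75.1, 64.3 and 26.7, and 6 other regions were called at P2 alone. Epha10, whose kinase domain is thought inactive, had 3 regions at P2 and 0 at P5 and P8, at percentiles 15.4, 26.1 and 14.7. Both genes thus had their calls mainly at P2.

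Epha4, the receptor of mesenchyme named above, had 8, 8 and 5 regions. Its promoter was at percentiles 88.0, 91.5 and 85.0, and regions inside the gene differed in the ages at which they were called. Region chr1:77412256-77412809 in the gene was called at all 3 ages, at percentiles 75.5, 79.4 and 68.7. Region chr1:77426880-77427440, also inside the gene and 87.9 kb from its start, had percentiles of 71.1 at P2 and 76.6 at P5 and was not called at P8. It was the highest-ranked EphA region at P2 among those lost. The 1 gained EphA region, chr1:77370867-77371367, was also inside Epha4, at percentile 43.1 at P5 and 31.5 at P8.

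The other EphA genes, receptors known for axon mapping in the brain apart from the epithelial Epha1, had 5 or fewer regions at each age. Epha1 had 3 regions and Epha8 had 2 at every age. Epha3 had 4, 5 and 3 regions, Epha5 had 2, 3 and 1, Epha6 had 3, 3 and 2, and Epha7 had 3, 3 and 2. The Epha7 promoter was at percentiles 94.7, 94.3 and 95.2, near the top at every age. Promoters of Epha1, Epha2, Epha3, Epha4, Epha5 and Epha7 were called at all 3 ages.

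The EphB genes, receptors of ephrin-B ligands, had 2 gained of 28 P8 regions and 21 lost of 47 P2 regions. Ephb2, which mice need for normal vestibular function, had 17, 11 and 9 regions at P2, P5 and P8, with 9 lost and 1 gained. Ephb1, an axon guidance receptor, had 11, 9 and 5, with 7 lost and 1 gained. Ephb3, a receptor that often acts with Ephb2, had 14, 11 and 10, with 4 lost and 0 gained. Lost regions outnumbered gained ones in each of these 3 genes. The gained EphB region with the highest P8 percentile was chr9:102216863-102217419 in Ephb1, at 33.0 at P8 and at 0.283 at P5. The lost one with the highest P2 percentile was chr4:136755336-136755847 in Ephb2, at 56.4 at P2 and 24.9 at P5.

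Some EphB regions were near the top of all 3 lists. At Ephb3 the promoter was at percentiles 99.4, 99.4 and 99.4, and chr16:21210834-21211342, inside the gene and 6.29 kb from its start, was at 90.1, 90.6 and 89.9. Ephb4, the receptor of venous endothelium, had 3, 3 and 2 regions, with its promoter at 92.4, 91.8 and 92.1. The Ephb1 promoter was at 92.8, 96.7 and 95.7. Ephb6, a receptor without kinase activity, had 2 at every age.

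Ephrin-A ligand genes had 1 gained of 17 P8 regions and 11 lost of 27 P2 regions. Efna5, a ligand that guides spiral ganglion axons in mice, had 13, 9 and 8 regions, with 6 lost and 1 gained. The gained region chr17:62649252-62649750, in the gene, was at percentile 16.1 at P8, low in its list. The Efna5 region just outside the gene, chr17:62882796-62883403, was called at all 3 ages, at 81.2, 85.8 and 84.2. Of the other lipid-anchored ligands, Efna1 had 4, 2 and 2 regions, Efna2 had 3, 3 and 2, Efna3 had 5, 5 and 4, and Efna4 had 2, 1 and 1. The lost region of this group highest at P2 was the Efna3 promoter region chr3:89322709-89323213, in the window printed above.

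Ephrin-B genes had 1 gained of 11 P8 regions (9.09%, 1.62 to 37.7%) and 2 lost of 12 P2 regions (16.7%, 4.70 to 44.8%). Both intervals included the shares of all regions, 19.0% and 31.7%. Efnb2, the ephrin-B2 named above and also an arterial endothelial ligand, had 5, 4 and 5 regions, Efnb1 had 6, 6 and 5, and Efnb3 had 1 at every age. The Efnb2 promoter was at percentiles 94.7, 91.4 and 92.4. Region chr8:8619480-8620002, inside the gene, was at 74.5, 68.0 and 64.8. Efnb2 regions chr8:8647695-8648243, at 55.1, 32.1 and 11.0, and chr8:8658749-8659247, at 61.6, 48.3 and 7.22, were low in the P8 list. Region chr8:8602538-8603036 of Efnb2, 14.4 kb beyond the gene, was gained at percentile 7.33. Region chrX:99134813-99135316, 0.996 kb before Efnb1, was lost, at percentile 68.5 at P2 and 48.2 at P5.

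Slit genes held 9 gained of 25 P8 regions (36%), and 20 of 36 P2 regions were lost. This number of gained regions was the highest of any role group, but the gained share was higher in netrins, at 42.9%. Slit3, a secreted ligand, had 24, 22 and 17 regions, with 7 gained and 14 lost. Region chr11:35297288-35297801, in Slit3 and 176 kb from its start, was called at P5 and P8, at percentiles 57.3 and 58.3. Region chr11:35151460-35151960, also inside and 30.3 kb from the start, was called at P2 and P5, at 66.5 and 31.2. Gained and lost regions thus lay inside the same gene. Slit2, which like Slit1 repels axons at the midline, had 6, 4 and 4 regions, with 2 gained and 4 lost, and its region at an internal start, chr5:47982785-47983334, was at 76.9, 75.4 and 81.9. Slit1 had 6, 3 and 4 regions, with 0 gained and 2 lost.

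Robo genes had 3 gained of 13 P8 regions and 14 lost of 24 P2 regions. Robo1, a Slit receptor, had 13, 12 and 7 regions, with 2 gained and 8 lost, and Robo2, a related receptor, had 7, 6 and 4, with 1 gained and 4 lost. The Robo1 promoter was at percentiles 85.2, 87.4 and 88.2. The lost region highest at P2 was chr16:72610485-72611104 in Robo1, at 45.1 at P2 and 54.8 at P5. The gained one highest at P8 was chr16:72688277-72688901 in Robo1, at 10.2. Robo3, which acts in commissural axons, had 3, 2 and 2 regions, and chr9:37430516-37431014 inside it was at 76.0, 79.0 and 75.5. Robo4, an endothelial receptor, had 1 region, called at P2 alone at percentile 20.4.

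Ntn1 and Ntn4, the netrin genes, together had more gained than lost regions, 6 gained of 14 P8 regions and 4 lost of 12 P2 regions. Ntn4, a netrin of basement membranes, had 4, 8 and 7 regions. All 4 of its gained regions were called at both P5 and P8. Region chr10:93760921-93761425, 15.2 kb beyond the gene, was the highest of these, at 60.0 at P5 and 66.6 at P8. A further region of Ntn4, chr10:93679330-93679829, was called at all 3 ages at 28.1, 59.4 and 77.4. Its 2 other regions called at all ages were the promoter region, at 31.7, 12.4 and 20.9, and chr10:93707310-93707812, at 15.1, 53.6 and 4.47. Ntn1, netrin-1, had 8, 6 and 7 regions, with 2 gained and 3 lost. The lost Ntn1 region highest at P2, chr11:68276804-68277302, was at 57.0, and chr11:68285686-68286186 was called at all 3 ages at 65.1, 58.8 and 56.0.

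The netrin receptors had 5 gained of 15 P8 regions and 15 lost of 25 P2 regions. Dcc, the receptor for attraction, had 0, 1 and 1 regions, and those at P5 and P8 were different regions. Unc5a, a receptor for repulsion like the other Unc5 genes, had 4 regions at P2 and 0 later, at percentiles 3.62 to 28.6. Unc5c had 8, 5 and 4, with 2 gained and 6 lost, and chr3:141588203-141588701 (gained, percentile 48.5) and chr3:141601208-141601706 (lost, percentile 49.7) were both in its gene body. Unc5b, also an endothelial receptor, had 9, 8 and 7 regions, with its promoter at 91.4, 87.5 and 87.8, and Unc5d had 4, 3 and 3. Region chr10:60760374-60760890, 1.96 kb beyond Unc5b, was called at all 3 ages at 76.4, 77.1 and 73.6. Dcc was the only member with no region at P2, and Epha10, Robo4 and Unc5a were those with none at P8.

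**Figure D3:**
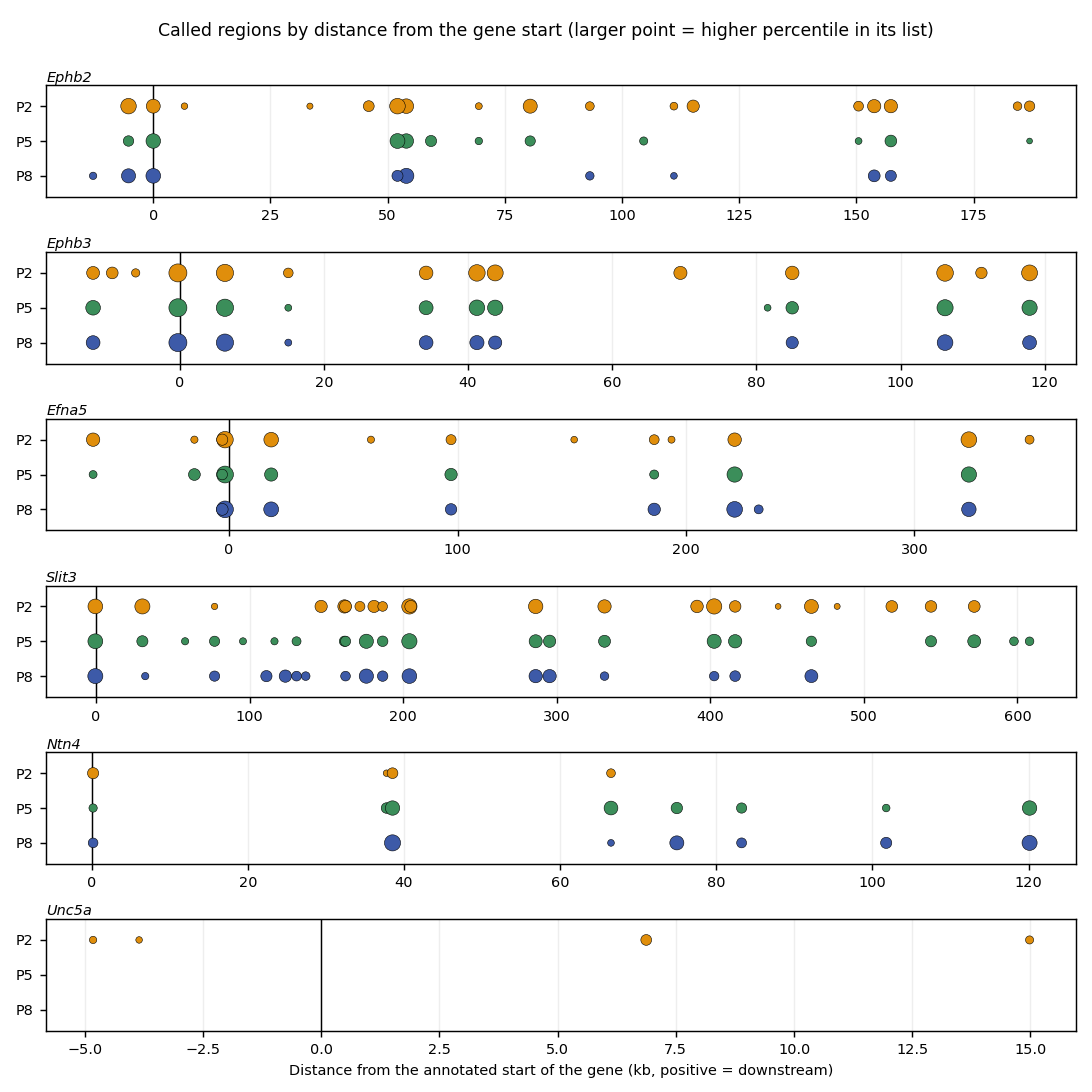
Regions of Ephb2, Ephb3, Efna5, Slit3, Ntn4 and Unc5a by distance in kb from the annotated start of the gene on the horizontal axis, with a row for each age and larger points for higher percentiles. Ntn4 has 4 marks at P8 that have no counterpart at P2, and Unc5a has marks at P2 alone.

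The 2 families differed in where their regions lay. Inside the gene were 71 of 137 Eph and ephrin regions (51.8%), 116 of 133 Slit, Robo and netrin regions (87.2%) and 58.3% of all regions. The median length of the gene was 27.8 kb for the Eph and ephrin genes and 252 kb for the Slit, Robo and netrin genes. The shares were therefore also taken within classes of gene and region. Within genes over 100 kb, 4 of 35 Eph and ephrin P8 regions were gained (11.4%) and 22 of 58 Slit, Robo and netrin regions (37.9%), against 25.8% of all. In those genes 30 of 61 (49.2%) and 44 of 80 (55.0%) P2 regions were lost, against 38.2% of all. Inside genes and over 1 kb from gene ends, gained shares were 10.3% in Eph and ephrin genes and 39.3% in Slit, Robo and netrin genes, against 25.8% of all, and the difference was −28.9 points (−43.7 to −9.08). Within 1 kb of a gene end, be it of the member or of another annotated gene, 0 of 20 and 0 of 8 P8 regions were gained, against 6.38% of all. In genes of at most 100 kb, 1 of 41 (2.44%) Eph and ephrin regions and 1 of 9 (11.1%, 1.99 to 43.5%) Slit, Robo and netrin regions were gained, against 15.7% of all. Outside genes 2 of 41 (4.88%) Eph and ephrin regions and 1 of 7 (14.3%, 2.57 to 51.3%) Slit, Robo and netrin regions were gained, against 17.0% of all. The Slit, Robo and netrin share was thus above that of all regions in long genes and inside genes, but not in shorter genes, outside genes or at gene ends, where it rested on 9 or fewer P8 regions. The Eph and ephrin share was below that of all regions in each of these classes, but not always beyond counting error. Its interval included the share of all regions in genes over 100 kb (4.54 to 26.0%), inside genes over 1 kb from gene ends (3.58 to 26.4%) and at gene ends (0 to 16.1%). It lay below that share in genes of at most 100 kb (0.432 to 12.6%) and outside genes (1.35 to 16.1%). The loss difference was −4.90 points inside genes over 1 kb from the ends, with an interval of −21.7 to 12.1.

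Gained and lost regions were mostly low in the list that called them, in these genes as in all genes. Of P8 regions in the lower 50% of the list, 5 of 39 Eph and ephrin regions (12.8%) and 19 of 44 Slit, Robo and netrin regions (43.2%) were gained, against 34.4% of all. The Slit, Robo and netrin interval there, 29.7 to 57.8%, included the share of all regions. In the upper 50%, 0 of 37 Eph and ephrin regions (3 counts of 37 would be 8.11%, and the Wilson upper bound is 9.41%) and 4 of 23 Slit, Robo and netrin regions (17.4%) were gained, against 4.25% of all. Lost shares of Eph and ephrin genes and of Slit, Robo and netrin genes were 64.3% and 68.9% in the lower 50%, against 57.2% of all, and 11.5% and 8.70% in the upper 50%, against 7.53% of all. The Eph and ephrin intervals, 52.6 to 74.5% and 5.40 to 23.0%, included those shares of all. So did the Slit, Robo and netrin interval in the upper 50%, 2.42 to 26.8%. In the lower 50% of the P2 list lay 45 of 51 lost Eph and ephrin regions and 51 of 53 lost Slit, Robo and netrin regions, against 87.8% of all lost regions. The lost regions had median P2 percentiles of 21.6 in Eph and ephrin genes and 23.0 in Slit, Robo and netrin genes, against 23.2 for all lost regions.

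**Figure D4:**
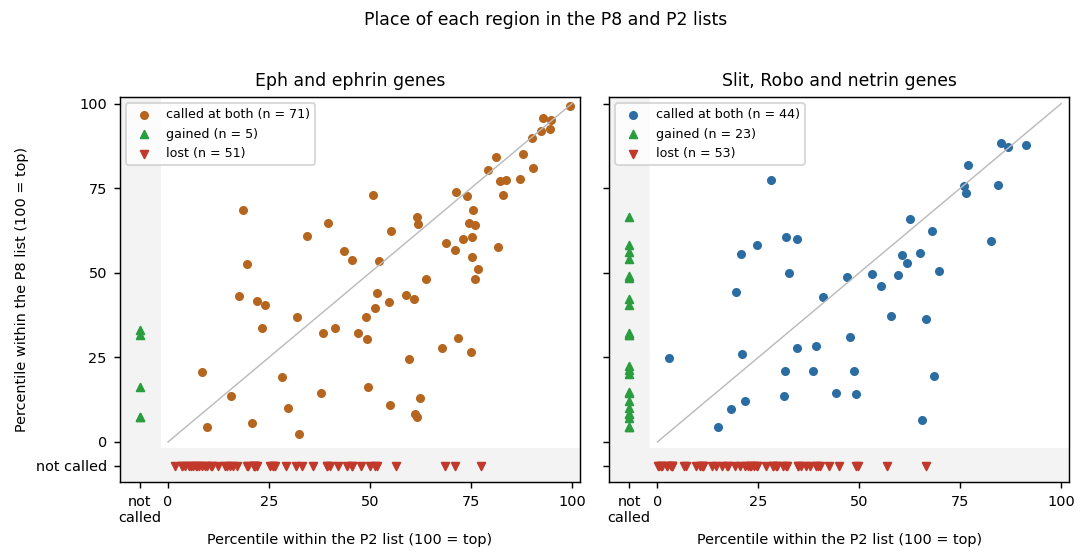
Percentile of each region in the P8 list (vertical axis) against the P2 list (horizontal axis), with 100 the top of a list, for the 2 families. Gained regions stand at the left edge and lost regions at the bottom edge, as they had no call in the other list. Lost regions lie mainly in the lower part of the P2 list, with medians of 21.6 in Eph and ephrin genes and 23.0 in Slit, Robo and netrin genes.

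Other genes of these pathways are set against all regions, of which 19.0% were gained and 31.7% lost. Of 24 Eph signalling genes matched, 23 had regions, with 49 of 187 P8 regions gained (26.2%) and 91 of 229 P2 regions lost (39.7%). In this list 5 genes had more gained than lost regions and 14 more lost. Of genes singled out for their counts, Tiam1, a Rac activator that binds Eph receptors, had 20, 11 and 9 regions. Of the Slit and Robo cofactors, 23 of 84 P8 regions were gained (27.4%) and 29 of 90 P2 regions were lost (32.2%), this lost share being near that of all regions. In the netrin list, 17 of 90 P8 regions were gained (18.9%), near the share of all regions, and 45 of 118 P2 regions were lost (38.1%). There Dscaml1, a cell adhesion protein, had 13, 6 and 5 regions and Dock1, an adaptor-linked Rac activator, had 7, 8 and 10. The semaphorin, plexin and neuropilin genes, another guidance family, had 35 of 155 gained (22.6%) and 86 of 206 lost (41.7%).

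Marker genes of cell types of the cochlea and of tissue beside it were read in the same lists, in which 19.0% of all P8 regions were gained and 31.7% of all P2 regions lost. For bone genes 10 of 19 P8 regions were gained and 1 of 10 P2 regions was lost, and for supporting cell genes these were 12 of 33 and 14 of 35. For brain genes they were 0 of 5 and 6 of 11, for Schwann cell genes 0 of 15 and 8 of 23, and for skeletal muscle genes 0 of 3 and 3 of 6. Hair cell genes had 4 of 20 and 13 of 29, stria vascularis genes 6 of 30 and 19 of 43, fibrocyte genes 3 of 19 and 9 of 25, spiral ganglion neuron genes 2 of 15 and 3 of 16, endothelial genes 7 of 34 and 16 of 43, and macrophage genes 3 of 6 and 1 of 4. The neuron marker Prph and the macrophage markers Adgre1 and Cd68 had no region at any age. The gained shares of bone genes, with an interval of 31.7 to 72.7%, and of supporting cell genes, 22.2 to 53.4%, lay above that of all regions. The intervals of the other lists, such as macrophage genes with 18.8 to 81.2%, included it. The part of cell makeup in the members' results was not tested. Peaks were all 499 bp wide and numbered 52085, 47683 and 43878 at P2, P5 and P8, and the read depth behind each is unknown.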

How the data were processed

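Per the labels, ATAC-seq was run on nuclei of whole cochleae from 3 P2, 3 P5 and 4 P8 animals. Per the submitters' processing notes, Trimmomatic 0.33, Subread 1.4.6-p3, MACS2 2.1.0 and mm10 were used. The authors deposited 1 peak list per age, filtered by irreproducible discovery rate (IDR). Each list gives the −log10 p-value of a peak and a score, the −log10 of the IDR, as deposited by the authors. Which animals or pools entered each IDR comparison was not given in the sources used here. No read counts were in these files, so depth is unknown.

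Peak starts were taken to count from 0 and are printed counting from 1; a shift of 1 bp is possible, as the lists do not say. Peaks overlapping by at least 1 bp across ages were merged, and each region went by its middle to the nearest of 21887 RefSeq protein-coding genes (GRCm38.p6) within 100 kb. Equal distances, found for 1 region of the members, were settled by the nearest gene end. Regions within 1 kb of gene ends were marked by the ends of all annotated genes, also those that do not code for protein. Gained, lost and kept calls were counted per gene, and peak scores were used only as percentiles within a list. Wilson 95% intervals for shares and Newcombe 95% intervals for differences take in counting error alone. No test between ages was possible with 1 list per age. Counting was tested on simulated data. Alternatives changed the threshold, list length, overlap, distance and assignment rule. Leaving out Ephb2 or Slit3, restricting to genes over 100 kb, and restricting by place in the list were added after seeing the data.

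All 36 members are named, with single regions where they were the highest gained, lost or always-called one of a role group. Regions named for other reasons (promoter percentiles of single members, Efnb2 regions low at P8 and Ntn4 regions called at all 3 ages), and Tiam1, Dscaml1 and Dock1, were chosen after their values were seen. The members and gene lists were chosen with earlier results of these data known. Python 3.11.15, pandas 2.3.3, statsmodels 0.14.6 and matplotlib 3.10.9 were used.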

Additional observations from a re-analysis of the deposited data

How the results depend on the processing

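No paired analysis was possible because each age has 1 list with no values per animal, and for the same reason no replicate could be left out. Of the shares and differences between families under 15 settings, 78 values stayed within the stated spread, 10 moved and 2 reversed. Some of the 78 could not change: the Slit, Robo and netrin shares without Ephb2, and the Eph and ephrin shares without Slit3. The difference in gained share was negative under every setting run, between −30.4 and −17.1 points. The interval of the difference in lost share included 0 except without Ephb2 (−27.7 to −0.878). With the upper 50% of each list, the gained share of Eph and ephrin genes was 16.2%, the lost share of Slit, Robo and netrin genes was 39.1%, and the difference in lost share was 1.25 points. With lists of equal length, lost shares were 32.0% for Eph and ephrin genes and 44.7% for Slit, Robo and netrin genes. For regions in the lower 50% of the list that called them, lost shares were 64.3% and 68.9%. For those in the upper 50%, lost shares were 11.5% and 8.70%, gained shares 0% and 17.4%, and the difference in lost share 2.84 points. These last 2 settings, by construction, follow rank within the list, since low-ranked calls were more often missing from the other list. Net gains of single genes counted as the same in 250 cases, moved in 103 and reversed in 7. Counted as the same were equal values and close values of like sign, such as −9 against −6 for Epha2 when every member within 100 kb was given the region. The net gain was 1 for Epha3, Efna1, Slit1, Slit2 and Robo1 with the upper 50% of each list, 1 for Epha3 at an IDR of at most 0.01, and 2 for Epha6 when every member within 100 kb was given the region. The cause of these reversals was not tested. Unknown read depth limits all calls near the threshold, since a region missing from a list may lie just below it.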
